A study of Mus musculus with 11 samples.

Results

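The genes described here are 43 that work in S phase, when DNA is copied, and in mitosis, when the copied chromosomes are separated. They were chosen by name as proliferation genes other than the D cyclins, and every array probe that carries one of those names, under its present or an older symbol, was taken. They comprise 18 S phase and 25 mitosis genes, measured by 66 of the 41174 distinct probes. All 43 were among the 15675 genes tested, and each was well above background on all 11 arrays. RNA from 11 liver samples of newborn mice on a mixed 129 and C57BL/6 background was measured on 1-colour Agilent arrays. The 6 mutants carried AFP-Cre and Rosa26-lsl-NICD. In cells where the alpha-fetoprotein promoter makes Cre, a stop cassette is removed and NICD, the active intracellular part of Notch, is made. The 5 controls carried Rosa26-lsl-NICD alone. There were 3 mutants and 3 controls at day 2, and 3 mutants and 2 controls at day 0, the day of birth. No group had Cre alone, so effects of Cre and of NICD cannot be told apart.

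A dividing cell licenses its replication origins by loading the Mcm2 to Mcm7 helicase ring with the help of Cdc6 and Cdt1. Cyclin E and the E2F factors then drive entry into S phase, and ribonucleotide reductase supplies the building blocks of DNA. Cyclin A and cyclin B with the kinase Cdk1 carry the cell through G2 and mitosis, where the spindle checkpoint and the anaphase-promoting complex time the separation of chromosomes. In newborn mouse liver both hepatocytes and the blood-forming cells that still reside there divide. In RNA from whole liver, fewer cells of a type and less RNA per cell cannot be told apart.

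Signal at the 75th percentile differed between arrays, with values of 599.0 to 1296, and the share of spots well above background was 63.3% to 68.6%. Replicates correlated across genes at no less than 0.983, apart from mutant day 0 replicate 3, whose correlations with its 2 fellow mutants were 0.953 and 0.952. That array gave the lowest value of all 11 for 14 of the 18 S phase genes and for 15 of the 25 mitosis genes. Replicate numbers are slide numbers, and each group kept 1 array position on every slide, so position and group cannot be told apart. Judged by Xist and Y-linked transcripts, all 3 day 0 mutants were female and both day 0 controls male, so sex and genotype cannot be told apart at birth. Of the tested markers of liver, 16 of 17 for hepatocytes and 33 of 33 for red cell precursors were well above background on all arrays.

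Promoters of S phase genes classically carry E2F sites and those of mitosis genes the cell cycle homology element, and sequences of both kinds are shown because the genes are read apart by phase below. RefSeq promoter windows (GRCm38.p6, 250 bases before to 50 after the start, 1 window per symbol) were present for 35 of the 43 genes, 15 of S phase and 20 of mitosis. Where a symbol had several windows, the first by position was kept, whatever the strand. That window need not hold the main promoter of the gene. Both strands were searched for an E2F site (TTTCCCGC, TTTCGCGC, TTTGCCGC or TTTGGCGC), for the cell cycle homology element (TTTGAA or TTCGAA) and for the CCAAT box. No match of one element overlapped a match of another in these windows. An E2F site stood in 6 of 15 S phase promoters (40%) and 1 of 20 mitosis promoters (5%), against 2.34% of all 27025 windows. The cell cycle homology element stood in 1 of 15 S phase promoters (6.67%) and 14 of 20 mitosis promoters (70%), against 19.4% of all windows. A CCAAT box stood in 9 of 15 S phase promoters (60%) and 16 of 20 mitosis promoters (80%), against 37.8% of all windows. A match describes these letters and does not show that a factor binds there. In the following windows, read 5′ to 3′ on the gene's strand, capitals mark matches. Cdc6, Mcm3 and Mcm6 hold E2F sites, 1 in Cdc6, 2 in Mcm3 and 3 in Mcm6, of which 2 overlap on opposite strands; Mcm3 and Mcm6 hold CCAAT boxes as well.
Cdc6 (chr11:98907901-98908200, + strand): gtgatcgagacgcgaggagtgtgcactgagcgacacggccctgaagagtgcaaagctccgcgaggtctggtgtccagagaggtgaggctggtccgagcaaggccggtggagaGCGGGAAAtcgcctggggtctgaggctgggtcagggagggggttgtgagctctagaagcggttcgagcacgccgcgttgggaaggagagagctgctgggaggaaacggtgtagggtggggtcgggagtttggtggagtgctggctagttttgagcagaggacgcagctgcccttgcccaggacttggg
Mcm3 (chr1:20820263-20820562, - strand): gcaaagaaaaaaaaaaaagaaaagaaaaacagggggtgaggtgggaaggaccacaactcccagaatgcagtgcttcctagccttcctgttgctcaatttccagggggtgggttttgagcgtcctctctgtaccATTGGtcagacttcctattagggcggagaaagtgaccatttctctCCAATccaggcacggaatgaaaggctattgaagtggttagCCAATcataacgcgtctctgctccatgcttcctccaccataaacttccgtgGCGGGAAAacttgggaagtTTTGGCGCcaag
Mcm6 (chr1:128359656-128359955, - strand): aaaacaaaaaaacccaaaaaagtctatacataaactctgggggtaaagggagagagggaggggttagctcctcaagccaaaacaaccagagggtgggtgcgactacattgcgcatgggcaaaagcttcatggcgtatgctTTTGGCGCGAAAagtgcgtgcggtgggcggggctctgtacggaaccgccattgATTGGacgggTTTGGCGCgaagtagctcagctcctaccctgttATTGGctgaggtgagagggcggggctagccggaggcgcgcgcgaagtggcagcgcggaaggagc
Cdk1, Mki67 and Ube2c hold the cell cycle homology element and several CCAAT boxes, and Cdk1 is the mitosis gene with an E2F site.
Cdk1 (chr10:69352863-69353162, - strand): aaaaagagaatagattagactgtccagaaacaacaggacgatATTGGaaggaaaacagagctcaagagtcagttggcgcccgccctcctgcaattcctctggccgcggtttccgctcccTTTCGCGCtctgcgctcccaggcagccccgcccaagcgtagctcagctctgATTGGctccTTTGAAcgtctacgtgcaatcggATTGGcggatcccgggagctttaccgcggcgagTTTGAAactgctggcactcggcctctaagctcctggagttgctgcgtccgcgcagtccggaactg
Mki67 (chr7:135716330-135716629, - strand): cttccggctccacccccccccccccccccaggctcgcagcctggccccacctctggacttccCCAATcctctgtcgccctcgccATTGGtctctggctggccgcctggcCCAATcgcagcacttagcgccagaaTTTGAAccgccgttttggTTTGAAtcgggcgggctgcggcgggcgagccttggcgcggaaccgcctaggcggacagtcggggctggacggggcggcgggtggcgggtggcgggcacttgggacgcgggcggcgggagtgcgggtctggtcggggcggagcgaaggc
Ube2c (chr2:164769679-164769978, + strand): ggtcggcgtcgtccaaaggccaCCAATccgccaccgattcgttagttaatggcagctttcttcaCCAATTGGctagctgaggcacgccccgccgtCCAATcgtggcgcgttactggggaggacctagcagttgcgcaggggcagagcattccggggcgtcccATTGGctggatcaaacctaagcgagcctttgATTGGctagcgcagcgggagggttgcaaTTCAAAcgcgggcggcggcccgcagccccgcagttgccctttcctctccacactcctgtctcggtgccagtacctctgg

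At day 2 most S phase genes, and a few mitosis genes, were lower in mutant than in control liver. Of 18 S phase genes 11 fell and none rose, with a median log2 difference of -0.72. Of 25 mitosis genes 4 fell and none rose, with a median of -0.33. Over all genes tested 7.06% fell and 9.51% rose, with a median of -0.11. Levels are given as log2 of the signal over the 75th percentile of the same array, so 0 is that percentile and 1 unit is a factor of 2. Differences are in the same log2 units, with the standard error (SE) of the limma fit and a p-value adjusted over all genes by the Benjamini-Hochberg method, with 0.05 as the threshold. Every day 2 mutant array lay below every day 2 control array for 18 of 18 S phase genes and for 9 of 25 mitosis genes, and for 26.1% of all genes. The plot of day 2 differences gives each gene with its SE, and shows S phase genes from -1.43 to -0.30 and mitosis genes from -1.06 to 0.08.

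**Figure D1:**
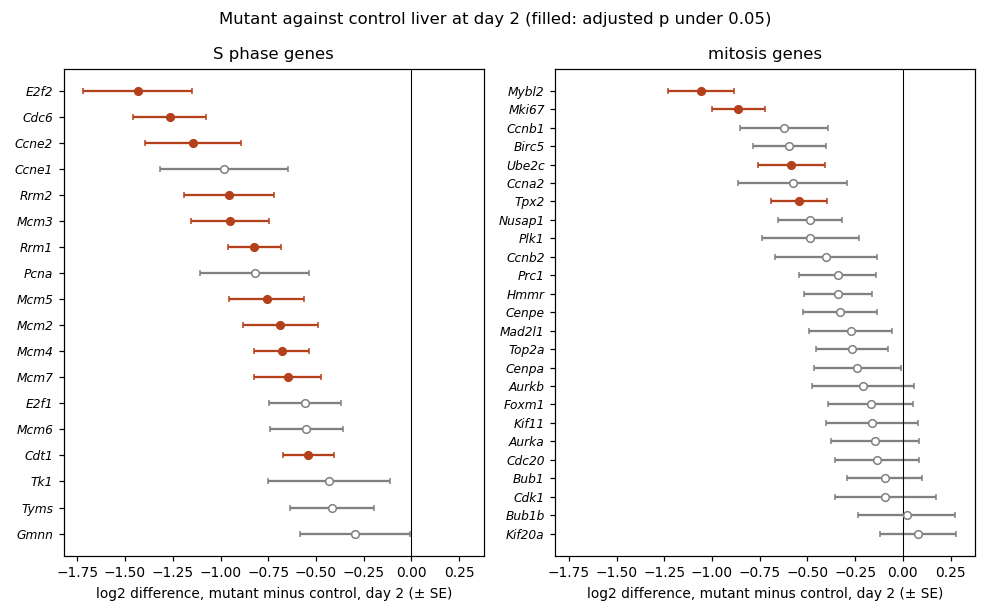
Log2 difference between mutant and control liver at day 2 for each gene, with SE bars; filled red points passed an adjusted p of 0.05. All 18 S phase genes lie left of 0 and 11 are filled, while 2 of 25 mitosis genes lie right of 0 and 4 are filled.

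Of the 9 origin licensing genes, 7 fell at day 2. Cdc6, which loads the helicase onto origins, had levels of 0.21, -0.18 and -0.03 in day 2 mutants and 1.59, 1.31 and 0.90 in day 2 controls. At day 0 it had 0.49, 0.75 and 0.62 in mutants and 0.91 and 0.75 in controls. Its day 2 groups were well apart, and the mutants of day 2 held the lowest values of any group. The day 2 difference was -1.27 ± 0.19 (SE, limma adjusted p = 0.00248). Cdc6 was also read by a second probe, which gave -0.95.

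Of the 6 helicase subunits, 5 fell. Mcm3 had levels of 4.72, 4.47 and 4.34 in day 2 mutants and 5.70, 5.34 and 5.35 in day 2 controls, with a difference of -0.95 ± 0.20 (adjusted p = 0.0129). Mcm5 had 3.70, 3.62 and 3.41 in day 2 mutants and 4.56, 4.13 and 4.33 in day 2 controls, with a difference of -0.76 ± 0.20 (adjusted p = 0.0294). In both genes the highest mutant array stayed clear of the lowest control array. Mcm2 had 3.1, 2.83 and 2.85 in day 2 mutants and 3.71, 3.53 and 3.59 in day 2 controls, with a difference of -0.69 ± 0.20 (adjusted p = 0.0414). Mcm4 had 4.84, 4.75 and 4.55 in day 2 mutants and 5.50, 5.40 and 5.27 in day 2 controls, with a difference of -0.68 ± 0.14 (adjusted p = 0.0124). The groups of Mcm4 again did not overlap. Mcm7 fell by 0.65 (SE 0.17, adjusted p = 0.0338). The remaining subunit, Mcm6, had a difference of -0.55 ± 0.19 that did not pass (adjusted p = 0.0793). Cdt1, the partner of Cdc6 in loading, had 4.18, 4.31 and 4.16 in day 2 mutants and 4.85, 4.65 and 4.78 in day 2 controls, and fell by 0.54 (SE 0.13, adjusted p = 0.0249). Gmnn, the protein that blocks Cdt1, had the smallest difference of the S phase genes, -0.30 ± 0.29 (adjusted p = 0.525).

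Among the genes of nucleotide supply and the replication fork, the 2 members for ribonucleotide reductase subunits fell. Rrm1, the large subunit, had levels of 3.68, 3.71 and 3.77 in day 2 mutants and 4.61, 4.50 and 4.53 in day 2 controls. The arrays within each of these groups lay close together and the groups were far apart. The difference was -0.82 ± 0.14 (adjusted p = 0.00467). Rrm2, the small subunit, fell by 0.95 (SE 0.23, adjusted p = 0.0238). Pcna, the sliding clamp of DNA polymerase, had 5.80, 5.81 and 5.68 in day 2 mutants and 6.77, 6.56 and 6.42 in day 2 controls, without overlap. Its difference of -0.82 ± 0.28 did not pass (adjusted p = 0.0796); the spread that all groups share was wide for Pcna, whose SD in day 0 mutants was 0.68 (n = 3). The thymidylate makers Tyms and Tk1 had differences of -0.41 ± 0.22 and -0.43 ± 0.32, neither of which passed.

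Of the cyclin E and E2F genes, E2f2 and Ccne2 fell. E2f2, one of the activating E2F factors, had levels of 4.29, 3.63 and 4.50 in day 2 mutants and 5.87, 5.51 and 5.34 in day 2 controls. It had 5.06, 5.54 and 4.61 in day 0 mutants and 5.37 and 5.46 in day 0 controls. Replicate 2 of the day 2 mutants was the lowest of all arrays for this gene. Its day 2 difference of -1.43 ± 0.29 (adjusted p = 0.00936) was the largest of the 43 genes. Ccne2, one of the genes for cyclin E, had -1.29, -1.71 and -1.36 in day 2 mutants and -0.09, -0.33 and -0.52 in day 2 controls, a difference of -1.14 ± 0.25 (adjusted p = 0.0147). The related Ccne1 had a difference of -0.98 ± 0.33 (adjusted p = 0.0748) and E2f1 of -0.56 ± 0.19 (adjusted p = 0.0709), and neither passed.

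The mitosis genes divided into a few that fell and a majority that did not pass. Mki67, which encodes the proliferation antigen Ki-67 that coats mitotic chromosomes, had levels of 5.12, 4.85 and 4.99 in day 2 mutants and 5.96, 5.80 and 5.79 in day 2 controls. At day 0 it had 5.64, 5.52 and 5.30 in mutants and 5.76 and 5.64 in controls. The day 2 mutants were the lowest group, clear of all the other arrays. The difference at day 2 was -0.86 ± 0.14 (adjusted p = 0.00349), and a second probe gave -0.82. Mybl2, a transcription factor of dividing cells, had 1.08, 1.19 and 0.88 in day 2 mutants and 2.31, 2.09 and 1.91 in day 2 controls, a difference of -1.06 ± 0.17 (adjusted p = 0.00377). Ube2c, the ubiquitin-conjugating enzyme of the anaphase-promoting complex, had 3.18, 3.62 and 3.27 in day 2 mutants and 4.08, 3.75 and 3.99 in day 2 controls, a difference of -0.58 ± 0.17 (adjusted p = 0.0489). Tpx2, a spindle assembly factor that activates Aurora A, fell by 0.54 (SE 0.15, adjusted p = 0.0343).

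None of the 7 cyclin and kinase genes of mitosis passed at day 2 with limma, and 1 had an unadjusted p under 0.05. Cdk1 had levels of 2.67, 3.13 and 2.53 in day 2 mutants and 2.98, 2.50 and 3.14 in day 2 controls, fully overlapping, with a difference of -0.09 ± 0.26 (adjusted p = 0.844). Ccnb1, for cyclin B1, had 1.53, 1.98 and 1.55 in day 2 mutants and 2.48, 2.00 and 2.46 in day 2 controls. Its groups touched without overlapping, and the difference of -0.62 ± 0.23 did not pass (adjusted p = 0.097). Top2a, the topoisomerase that untangles sister chromatids, had 0.73, 0.76 and 0.23 in day 2 mutants and 1.08, 0.54 and 0.90 in day 2 controls. These overlapped, with a difference of -0.27 ± 0.19 (adjusted p = 0.37). The other 4 spindle checkpoint and anaphase genes, Bub1, Bub1b, Mad2l1 and Cdc20, had differences from -0.27 to 0.02, and the kinesin Kif20a had 0.08 ± 0.20.

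Each slide held 1 mutant and 1 control of day 2. Within slides 1, 2 and 3, the median day 2 difference of the S phase genes was -0.83, -0.68 and -0.73, with 18 of 18 negative on each slide. For the mitosis genes the medians were -0.43, 0.22 and -0.67, with 24, 9 and 25 of 25 negative. On slide 2 most mitosis genes thus had the higher value in the mutant. Cdk1 shows this, with within-slide differences of -0.31, 0.64 and -0.61, while Mki67 had -0.83, -0.95 and -0.81. Same-numbered arrays of day 2 deviated together, and with slide as a block 2 in place of 4 mitosis genes passed at day 2, since Tpx2 and Ube2c no longer did. Of all 15675 genes 1025 fell with that block, against 1106 without it.

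**Figure D2:**
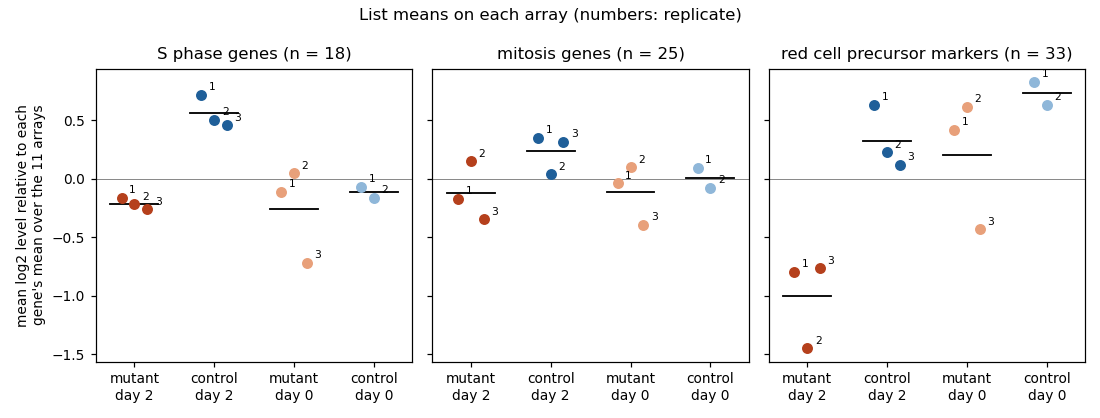
Mean log2 level of each gene list on each array, relative to each gene's mean over the 11 arrays, for the 4 groups; points are arrays with their replicate numbers and bars are group means. S phase genes of day 2 mutants lie between -0.26 and -0.17 and those of day 2 controls between 0.46 and 0.72, whereas the mitosis means of day 2 mutants run from -0.35 to 0.15 and overlap those of the controls.

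Markers of red cell precursors moved with the S phase genes at day 2. Of 33 tested erythroid markers 21 fell and none rose, with a median of -1.31, and all 33 were well above background on all arrays. Their summed signal, in units of each array's 75th percentile, ran from 232 to 375 in day 2 mutants and from 661 to 951 in day 2 controls. At day 0 it ran from 553 to 943 in mutants and from 909 to 1044 in controls. In the plot of list means by array, day 2 mutant replicate 2 had the lowest erythroid mean, -1.45, and the highest mitosis mean of its group, 0.15. Hepatocyte markers fell for 7 of 17 tested genes (median -0.82); no summed signal is given for them, since Alb was saturated on all 11 arrays and Fgb on 5. Bile duct markers rose for 12 of 15 (median 2.66), with sums from 305 to 367 in day 2 mutants and from 95.6 to 148 in day 2 controls. The part of these cell types in the levels of S phase and mitosis genes was not tested.

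The processing of the arrays bears on how many genes passed, so the day 2 result was read under each scaling. Quantile normalization of the same signals left 4 of 18 S phase genes past the threshold, and so did the authors' deposited log2 table, in place of 11. Among all genes 734 of 15675 fell after quantile normalization and 756 of 15622 in the authors' deposited table. The median difference of the S phase genes was then -0.50 after quantile normalization and -0.51 in the authors' deposited table. Mutant arrays lay below all control arrays for 14 S phase genes after quantile normalization and for 15 in the authors' deposited table. The share of all genes that did so is not given under these scalings. Leaving out control day 2 replicate 1, which was the highest of all arrays for 17 S phase genes, left 3 S phase genes past the threshold, with a median of -0.64. Leaving out day 2 mutant replicate 1, 2 or 3 left 6, 4 and 4 S phase genes, and leaving out control day 2 replicate 2 or 3 left 7. For fits without a day 2 array the counts of all genes are not given. Whether these losses exceed those of all genes was therefore not tested. The number of mitosis genes was 2 without either day 0 control, control day 2 replicate 1 or 3, or day 2 mutant replicate 1 or 3. Without mutant day 0 replicate 3, 16 S phase and 8 mitosis genes passed. In that setting 2568 of all 15675 genes fell, against 1106 with all arrays. Of the genes given here by array, Cdc6, E2f2, Rrm1, Mki67 and Mybl2 passed at day 2 under all 22 alternatives run, with differences from -1.45 to -1.11 for Cdc6 and from -0.93 to -0.53 for Mki67. The probes that gave these values are shown for 3 of them, since they are the part of each transcript that was measured; their positions are on mouse build mm8, as the files give them, and whether they lie in coding sequence is not given in the sources used here.
Cdc6 probe (chr11:98737349-98737408, + strand): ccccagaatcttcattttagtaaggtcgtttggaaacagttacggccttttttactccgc
E2f2 probe (chr4:135466723-135466782, + strand): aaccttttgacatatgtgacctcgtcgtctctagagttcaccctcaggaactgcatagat
Mki67 probe (chr7:135528251-135528310, - strand): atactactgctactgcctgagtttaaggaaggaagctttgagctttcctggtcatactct

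**Figure D3:**
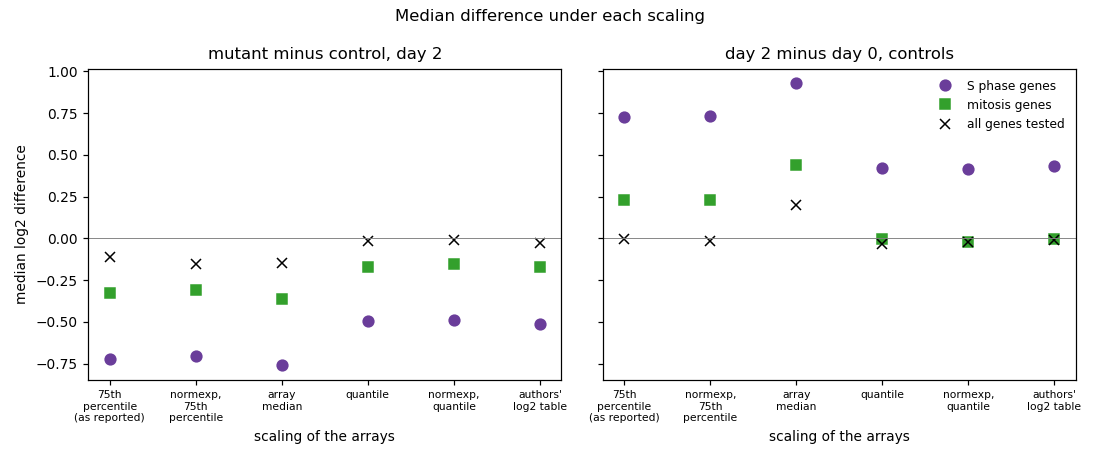
Median log2 difference of the 18 S phase genes, the 25 mitosis genes and all genes tested, under 6 scalings of the arrays, for mutant minus control at day 2 (left) and day 2 minus day 0 in controls (right). At day 2 the S phase median lies between -0.76 and -0.49 under every scaling shown, and in controls the mitosis median lies at or near 0 under the 3 quantile-type scalings.

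At birth no difference between the genotypes passed for these genes. With limma 0 of 43 passed at day 0 and 0 had an unadjusted p under 0.05, where 2.46% of all genes passed and 15.3% had such a p. Medians were -0.16 for S phase and -0.17 for mitosis genes, and within slides 1 and 2 they were -0.02 and 0.20 for S phase and -0.16 and 0.20 for mitosis genes. The largest S phase difference was that of Mcm3, -0.38 ± 0.23. Mutant day 0 replicate 3 set the sign of these medians: without it they were 0.05 and 0.03, and Gmnn then passed as higher in mutants (0.59 ± 0.13, adjusted p = 0.0423), a gene chosen after its value was seen. Pcna had levels of 5.90, 6.12 and 4.86 in day 0 mutants and 5.88 and 5.94 in day 0 controls, and Mcm2 had 2.95, 3.21 and 2.44 in day 0 mutants and 3.17 and 2.98 in day 0 controls. In both genes mutant replicate 3 was the lowest of the 5 birth arrays. Rrm1 had the smallest p, with levels of 3.69, 3.71 and 3.28 in day 0 mutants and 3.84 and 3.82 in day 0 controls, a difference of -0.27 ± 0.16 (adjusted p = 0.459). Mcm3 had 4.45, 4.53 and 4.03 in day 0 mutants and 4.97 and 4.47 in day 0 controls, and Mcm5 had 3.12, 3.50 and 2.78 in day 0 mutants and 3.41 and 3.46 in day 0 controls. Rrm1 kept all mutants below the controls, while Mcm3 and Mcm5 overlapped. All mutants lay below both controls for 1 of 18 S phase and 3 of 25 mitosis genes at day 0. The share of all genes that did so is not given. Among mitosis genes, Top2a had 0.52, 0.62 and 0.50 in day 0 mutants and 0.89 and 0.74 in day 0 controls. Cdk1 had 2.82, 3.20 and 2.34 in day 0 mutants and 2.88 and 2.65 in day 0 controls, and Ccnb1 had 1.68, 1.95 and 1.18 in day 0 mutants and 1.94 and 1.76 in day 0 controls. Top2a was without overlap, whereas Cdk1 and Ccnb1 had mutants on both sides of the controls. None of the 33 erythroid markers passed at day 0 with limma (1 had an unadjusted p under 0.05, median -0.48), while 5 of 17 hepatocyte markers fell.

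Whether the genotype difference itself was larger at day 2 than at day 0 was tested directly, and none of these genes passed. With limma 0 of 43 passed, where 0.255% of all genes did, and 9 of 43 had an unadjusted p under 0.05, against 14.9% of all genes. This test uses the same arrays as the comparisons within each day and each genotype. The difference of differences was negative for 18 of 18 S phase genes (median -0.55) and for 21 of 25 mitosis genes (median -0.22). Among all 15675 genes it was negative for 8699 (median -0.07). Cdc6 came closest, with -1.06 ± 0.29 (adjusted p = 0.172), followed by Cdt1 with -0.66 ± 0.20 (adjusted p = 0.204). The Cdc6 probe used had genotype differences of -0.21 at day 0 and -1.27 at day 2. Its second probe had -0.60 and -0.95, which lie closer together. Without mutant day 0 replicate 3, Ccne1 (-1.36 ± 0.22, adjusted p = 0.0321) and Mcm6 (-0.78 ± 0.15, adjusted p = 0.0452) passed, both named after their values were seen. The S phase median was -0.24 in the authors' deposited table and -0.22 after quantile normalization, and the mitosis median turned to 0.03 and 0.05. The median of all genes was then 0.02 and 0.05.

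Over both days taken with equal weight, 7 of 18 S phase genes and 2 of 25 mitosis genes fell, none rose, where 7.09% of all genes fell and 8.98% rose. The S phase genes were Ccne2, Cdc6, E2f2, Mcm3, Mcm4, Mcm5 and Rrm1, and the mitosis genes Mki67 and Mybl2. Mki67 had the smallest p, with -0.54 ± 0.10 (adjusted p = 0.00809), then Rrm1 with -0.55 ± 0.11 (adjusted p = 0.00821) and Cdc6 with -0.74 ± 0.14 (adjusted p = 0.00838). E2f2 had the largest difference, -0.89 ± 0.21 (adjusted p = 0.0219). With slide as a block 4 S phase genes passed (Cdc6, Mcm3, Mcm4 and Rrm1). With pup sex as a covariate 2 did (Cdc6 and Rrm1), and of the mitosis genes 1 (Mybl2). Of all 15675 genes 878 fell with the slide block and 365 with pup sex, against 1112 with neither. Between 2 and 4 S phase genes passed without either day 0 control, without control day 2 replicate 1 or without any 1 of the day 2 mutants, and 11 without mutant day 0 replicate 3. Red cell precursor markers fell for 20 of 33 genes over both days.

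In control liver some S phase genes were higher at day 2 than at birth. Of 18 S phase genes 7 rose, where 6.32% of all genes rose, and none fell, where 5.62% did. They were Cdt1, Mcm4, Mcm5, Mcm6, Mcm7, Rrm1 and Tyms. The median difference was 0.73, and for 15 of 18 genes all 3 day 2 controls lay above both day 0 controls, as they did for 30.3% of all genes. Among 25 mitosis genes 2 rose, Birc5 and Mybl2, a share near that of all genes, with a median of 0.23. The median over all genes was -0.0041. Red cell precursor markers rose for none of 33 genes and fell for 2 in the same comparison (median -0.33).

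Tyms, which makes thymidylate, had levels of 5.38, 5.24 and 5.45 in day 2 controls and 4.33 and 4.31 in day 0 controls, a difference of 1.04 ± 0.25 (adjusted p = 0.0293). Rrm1 had 3.84 and 3.82 in day 0 controls, well below the day 2 controls given above, with a difference of 0.71 ± 0.16 (adjusted p = 0.0233). Mcm4 had 5.50, 5.40 and 5.27 in day 2 controls and 4.61 and 4.65 in day 0 controls, a difference of 0.76 ± 0.16 (adjusted p = 0.0198). In these genes the 2 birth arrays lay close together and below every later one. Mcm7 had 5.93, 5.72 and 5.71 in day 2 controls and 5.0 and 4.93 in day 0 controls. Cdt1 had 4.22 and 3.99 in day 0 controls, below all its day 2 controls. Their differences were 0.65 ± 0.15 for Cdt1 (adjusted p = 0.0268) and 0.82 ± 0.20 for Mcm7 (adjusted p = 0.0293). Birc5, the survivin subunit of the chromosomal passenger complex, had 7.26, 6.94 and 7.19 in day 2 controls and 6.32 and 6.16 in day 0 controls, a difference of 0.89 ± 0.21 (adjusted p = 0.0312). Ccne1, the other cyclin E gene, had the largest difference, 1.30 ± 0.37, and did not pass (adjusted p = 0.0521).

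The count in controls rests on 2 birth arrays and on the scaling. No S phase gene passed without control day 2 replicate 1 or 2, after quantile normalization, in the authors' deposited table or with pup sex. Without control day 2 replicate 3, 1 passed, and 13 without mutant day 0 replicate 3. Leaving out 1 array gave S phase medians from 0.65 to 0.77. Among all genes 555 of 15675 rose after quantile normalization, 587 of 15622 in the authors' deposited table and 150 of 15675 with pup sex. Without mutant day 0 replicate 3, 2384 of all genes rose, against 991 with all arrays. Counts of all genes are not given for fits without a day 2 control. The S phase median was 0.42 after quantile normalization and 0.43 in the authors' deposited table, and 14 of 18 genes still had all day 2 above all day 0 controls in each. The share of all genes that did so is not given under these scalings. Scaling to the array median moved the median of all genes to 0.20 in this comparison, relative to which the S phase median of 0.93 stood 0.73 higher. Within slides 1 and 2 the S phase median was 0.83 and 0.66, and the mitosis median 0.20 and 0.15; slide 3 held no day 0 control. The mitosis median was -0.02 under normexp with quantile normalization.

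In mutant liver few of these genes passed between birth and day 2. Of 18 S phase genes 2 fell and none rose, and of 25 mitosis genes 3 fell and none rose, where 11.6% of all genes fell and 9.21% rose. The shares that fell were thus near that of all genes. Medians were 0.17 and 0.07, against -0.01 over all genes. Without mutant day 0 replicate 3 the medians were -0.07 and -0.14. Within slides 1, 2 and 3 the S phase medians were -0.0071, -0.068 and 0.45, and the mitosis medians -0.15, 0.097 and 0.12. Nusap1, which bundles spindle microtubules, had levels of 2.69, 2.78 and 2.55 in day 2 mutants and 3.34, 3.60 and 3.75 in day 0 mutants, a difference of -0.89 ± 0.17 (adjusted p = 0.00854). Ube2c had 3.97, 4.42 and 4.28 in day 0 mutants, above all day 2 mutants, with a difference of -0.86 ± 0.17 (adjusted p = 0.0113). Mki67 fell by 0.50 (SE 0.14, adjusted p = 0.0348). Red cell precursor markers fell for 17 of 33 genes over the same interval (median -1.09), and their part in these values was not tested.

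Cdc6 and E2f2 were the S phase genes that fell with age in mutants, a share near that of all genes. The difference was -0.62 ± 0.19 for Cdc6 (adjusted p = 0.0476) and -0.93 ± 0.29 for E2f2 (adjusted p = 0.0471), both near the threshold. With slide as a block neither passed and Ccne2 did, so that 1 S phase gene passed. None fell without any 1 of the day 2 mutants, without day 0 mutant replicate 1, or without control day 2 replicate 2; without day 0 mutant replicate 2, 1 S phase gene rose and none fell. Prc1, which cross-links microtubules of the spindle midzone, had 3.40, 3.55 and 2.85 in day 2 mutants and 3.90, 3.92 and 3.52 in day 0 mutants, a difference of -0.51 ± 0.20 that did not pass (adjusted p = 0.098). The same change with age was 0.43 ± 0.21 for Cdc6 and 0.16 ± 0.32 for E2f2 in controls, and neither passed. The plot of change with age sets both genotypes side by side: 18 of 18 S phase genes lie to the right of 0 in controls and below the line of equal change.

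**Figure D4:**
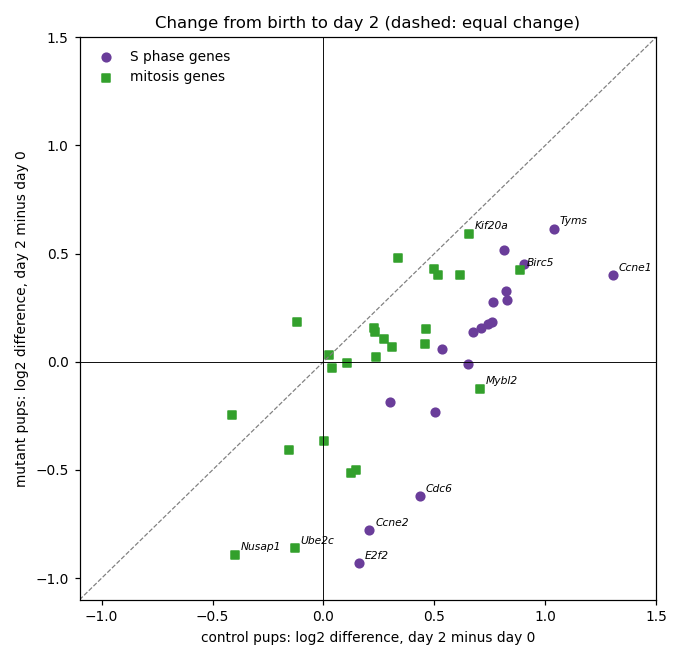
Log2 difference between day 2 and day 0 in mutant pups (vertical) and control pups (horizontal), 1 point per gene; the dashed line marks equal change. S phase genes run from 0.16 to 1.30 in controls and from -0.93 to 0.61 in mutants, and Nusap1 and Ube2c lie lowest among mitosis genes.

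Group means place the day 2 controls highest for 18 of 18 S phase genes and for 18 of 25 mitosis genes. The lowest S phase mean was that of day 0 mutants for 10 genes, of day 2 mutants for 5 and of day 0 controls for 3. The median SD within a group was 0.15 for S phase genes of day 2 mutants and 0.14 for day 2 controls, against 0.39 for day 0 mutants. The heat map of all 43 genes shows this order, as day 2 controls stand out in the S phase block. The mitosis genes Nusap1, Ube2c, Prc1, Cdk1, Hmmr and Kif11 have their highest array at day 0.

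**Figure D5:**
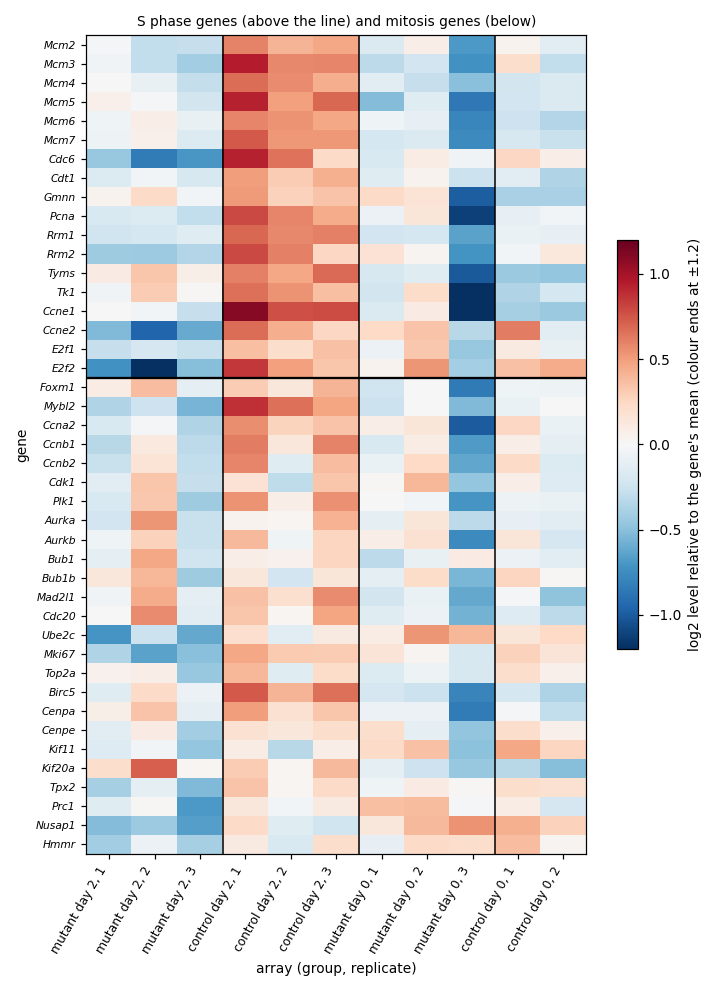
Log2 level of the 43 genes (down the page, S phase above the line) on the 11 arrays (across, by group), relative to each gene's mean; red is higher and blue lower, and colours end at 1.2 units. The day 2 controls are red for nearly all S phase genes, and mutant day 0 replicate 3 is the bluest column.

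Other genes of both phases, taken from separate lists of 40 S phase and 50 mitosis genes, were read in the same fit. At day 2, 6 of 40 S phase genes fell and none rose (median -0.48), where 7.06% of all genes fell. Among them Uhrf1 and Dnmt1, which copy DNA methylation onto new strands, fell by 0.81 (SE 0.15, adjusted p = 0.00735) and by 0.61 (SE 0.14, adjusted p = 0.0194). Orc1, of the origin recognition complex, fell by 1.07 (SE 0.26, adjusted p = 0.0234). Of the 50 mitosis genes 7 fell and none rose (median -0.27), led by Cdca2, Smc4 and Cdca8. From birth to day 2 in controls 15 of 40 S phase genes rose (median 0.67), where 6.32% of all genes did, among them Ung, a DNA repair glycosylase, with 1.12 ± 0.15 (adjusted p = 0.0038). Troap was the 1 of 50 mitosis genes that rose there, by 1.86 (SE 0.28, adjusted p = 0.00554). In mutants 4 of 40 S phase genes rose over the same interval (median 0.27), among them the polymerase gene Pole with 0.90 ± 0.20 (adjusted p = 0.0152), and of the mitosis genes 2 rose and 3 fell (median 0.07). Over all genes 9.21% rose and 11.6% fell in mutants, so these shares lie near or below those of all genes.

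Probes of one gene were compared as a check on identity. Of 15 genes with several tested probes, each had 1 direction for the day 2 genotype difference, and 9 did for the change with age in controls. The exceptions in controls were Ccne2, Cdc6, Cenpe, Kif11, Mki67 and Top2a, none of which passed there. Cdk1, Cenpe and Top2a had probes of both directions for the change with age in mutants. Reading each gene as the mean of its probes kept all 15 genes that had passed at day 2.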

How the data were processed

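Per the file headers, the deposited scanner files hold spot intensity and a processed signal from Agilent Feature Extraction 9.5.3.1, corrected for background within an array. A second deposited file holds the authors' log2 values, computed with RMA per the submitters' processing notes. Here the log2 processed signal minus the 75th percentile of its array was used, without control and outlier spots. Probes well above background on every array of a group were tested, which kept 27094 of 41174, and a gene was read from its brightest probe. limma 3.58.1 (R 4.3.3) fitted 4 group coefficients on 11 arrays (7 residual and 2.36 prior degrees of freedom), with Benjamini-Hochberg adjustment over 15675 genes. The fit was tested on simulated data for the day 2 genotype difference only, with known shifts and noise independent between arrays. Scaling, probe choice and the other comparisons were not tested in this way. The labels give separate samples only, so p-values measure the spread between these samples.

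Per-array values are given for Mki67, Top2a, Pcna, Mcm2, Ccnb1 and Cdk1, for members that passed over both days, and for the 6 members with the smallest p in each other comparison. The members and lists were chosen with earlier results of these data known. Deviations of same-numbered day 2 mutant and control arrays correlated at 0.292, 0.230 and 0.258 (others -0.216 to -0.0597), so slide numbers pair them; at day 0 the values were 0.0633 and 0.0936, with age in mutants -0.0298 to 0.101, and in controls -0.00184 and 0.126. Alternatives were other background corrections, scalings, filters and probe rules, slide as a block, pup sex, fewer groups and leaving out each array.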

Additional observations from a re-analysis of the deposited data

How the results depend on the processing

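The median day 2 difference between mutants and controls stayed negative under all 22 alternatives, from -0.79 to -0.49 for S phase and from -0.45 to -0.15 for mitosis genes. Counts moved more. At day 2 (11 S phase and 4 mitosis genes) 4 S phase genes passed with quantile normalization, with normexp and quantile normalization and in the authors' deposited table, and 2 mitosis genes with quantile normalization, without the filter, with the replicate block and with pup sex; leaving out 1 array gave 3 to 16 and 2 to 8. Over both days (7 and 2) 4 S phase genes passed with normexp and quantile normalization, without the filter and with the replicate block, 3 in the authors' table and 2 with pup sex, which left 1 mitosis gene; leaving out 1 array gave 2 to 11 and 1 to 3. For the difference between days the S phase median of -0.55 became -0.21, -0.22 and -0.24, and the mitosis median of -0.22 became 0.054, 0.054 and 0.029 (normexp with quantile, quantile, authors' table); leaving out 1 array gave -0.73 to -0.45 and -0.37 to -0.058, with 0 to 2 S phase genes lower. In controls with age (7 and 2 higher) 0 and 0 passed under those 3 settings and with pup sex, 11 S phase genes with only these groups and 1 mitosis gene without the filter; medians of 0.73 and 0.23 became 0.42, 0.42 and 0.43, and -0.021 with normexp and quantile; leaving out 1 array gave 0 to 13 and 0 to 3 genes. In mutants with age (2 S phase genes lower) 0 passed with the array median, without the filter, with pup sex and with only these groups, 1 with quantile normalization and with the replicate block, and 0 to 2 without 1 array, with S phase medians from -0.069 to 0.25. The replicate block changed the calls of Tpx2 and Ube2c at day 2 and kept 13 of the 15 genes called there. The causes were not tested, beyond fewer samples or other genes tested by construction. Groups of 2 or 3 arrays limit the precision.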

Other observations

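Markers of other cell types at day 2, not described above, were read in the same limma fit for mutant against control. Stellate cell and fibroblast markers rose for 2 of 11 genes (median 0.67). Endothelial markers rose for 1 and fell for 1 of 11 (median -0.12). Macrophage markers fell for 3 of 13 (median -0.66) and megakaryocyte markers for 1 of 13 (median -1.1). All 13 megakaryocyte and 12 of 13 macrophage markers had negative differences, as did 9343 of all 15675 genes. An unadjusted limma p under 0.05 was found for 10 megakaryocyte and 6 macrophage markers, and for 4909 of all genes. Of 14 granulocyte precursor markers (median -0.46) and 9 tested lymphoid markers (median -0.26) none passed, and 1 of each list had an unadjusted p under 0.05.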
